A study of Sus scrofa with 6 samples.

Results

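The 5 genes of neutrophil attraction described across cell types and libraries are the CXC chemokines Cxcl1, Cxcl2, Cxcl3 and Cxcl5, and their receptor Cxcr2. They were taken by exact match of the symbol in the deposited gene lists, which found 5 of 5 genes among 32285. The matched mouse Ensembl identifiers are ENSMUSG00000029380 for Cxcl1, ENSMUSG00000058427 for Cxcl2, ENSMUSG00000029379 for Cxcl3, ENSMUSG00000029371 for Cxcl5 and ENSMUSG00000026180 for Cxcr2. The rule itself uses gene symbols and no measured value. Together they gave 5345930 unique molecular identifiers (UMIs, each standing for one captured RNA molecule) in 88337 cell barcodes, of which Cxcl2 alone gave 4622337, Cxcl1 366958, Cxcl3 261570, Cxcl5 73713 and Cxcr2 21352.

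Cxcl1, Cxcl2, Cxcl3 and Cxcl5 are small secreted proteins that carry a glutamate-leucine-arginine (ELR) motif and bind Cxcr2, a G protein-coupled receptor that steers neutrophils towards the source of the chemokine. In skin, resident cells such as fibroblasts, endothelium, keratinocytes and macrophages can make them after injury or infection, and neutrophils that have arrived can make more, which draws in further neutrophils. Their transcripts are short-lived and are induced by interleukin-1, tumour necrosis factor and interleukin-17 through NF-kB.

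The labels describe 6 single-cell RNA libraries of unsorted, collagenase-digested skin cells from red duroc pigs, 1 library for each of 6 labels. One is normal skin with no treatment and one is irradiated skin, described as the control of the treated arms. The other 4 carry 1 mg patches of deferoxamine (DFO), an iron chelator, given under different schedules: pretreatment for 2 weeks before radiotherapy, continuous treatment for 18 weeks in total, acute treatment with 12 weeks of recovery after radiation, and chronic treatment 4 weeks after recovery. The gene features go against these labels, since all 32285 are mouse genes, the normal, irradiated, acute and chronic libraries also hold anti-mouse hashtag antibody features, and the series title names an anti-JUN treatment of adhesions after surgery. Each library is therefore named below by its label only, without a statement that the label describes the tissue.

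Because each label has 1 library, no test between labels was possible and none is given; ratios between libraries carry 95% intervals that cover counting error only, and the number of animals behind a library is not given in the sources used here. Comparisons between cell types pair the classes within each library. The libraries carry different labels and are not replicates of a condition, so these comparisons speak of the order of classes only. The libraries held 18611144 to 54966435 gene UMIs, and 1477 to 19296 cells remained per library after filters, 70536 in all. The pretreatment library stood apart, with 1477 kept cells at a median of 9678 UMIs, against medians of 1242 to 3191 in the other libraries. The 88337 barcodes comprised 87523 distinct sequences, of which 808 occurred in 2 libraries and 3 in 3. Cxcl1, Cxcl2 and Cxcl3 have similar sequences, and how reads that match more than 1 gene were treated is not given in the sources used here.

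Cells were assigned by marker genes to classes named "-like", and 60647 of the 70536 kept cells received a class. In 5 libraries the neutrophil-like class held 2307 to 7320 cells, but in the pretreatment library it held 23, which was 1.56% of the kept cells there; comparisons with neutrophil-like cells therefore leave that library out. Macrophage or monocyte-like cells numbered 339 to 6695 per library and fibroblast-like cells 331 to 1904. Summed neutrophil markers had a median of 1032 counts per 10000 in neutrophil-like cells and medians of 7.11 to 16.8 in the other compared classes. Summed fibroblast markers had a median of 452 in fibroblast-like cells and 1.31 to 6.18 elsewhere. Both lists were also used to assign the cells, so this separation follows from the rule. Of the cells in a class, 3.3% (neutrophil-like), 3.31% (fibroblast-like) and 6.27% (macrophage or monocyte-like) lay near the limits of the assignment. Clusters made without the 5 genes carried the same class name for 90.5% of neutrophil-like, 94.6% of fibroblast-like and 96.6% of macrophage or monocyte-like cells. No dendritic-like cell lay in a cluster of that name (0%), so values for dendritic-like cells rest on the marker rule alone.

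Cxcl2, the most abundant of the chemokines here, was highest in neutrophil-like cells, where it made up several percent of all RNA counted. Its level was 49962 CPM (the gene's share of a class's summed UMIs, on a scale where 1000000 is all of them) in the normal library, 56572 in the irradiated, 44587 in the continuous, 48695 in the acute and 61978 in the chronic library. As shares of all neutrophil-like UMIs these are 5.00%, 5.66%, 4.46%, 4.87% and 6.20%. All 5 lay above every macrophage or monocyte-like value, which was 18126 in the normal, 22403 in the irradiated, 5974 in the pretreatment, 9972 in the continuous, 19625 in the acute and 16731 CPM in the chronic library. Macrophage or monocyte-like cells were thus a second, lower source, with 0.997% to 2.24% of their UMIs from this gene outside the pretreatment library and 0.597% in it. The 23 neutrophil-like cells of the pretreatment library read 25403 CPM. Fibroblast-like cells held 3322 CPM in the normal, 5104 in the irradiated, 146 in the pretreatment, 2549 in the continuous, 4301 in the acute and 2162 in the chronic library, below the macrophage or monocyte-like value in each library.

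Cxcl3, a close relative of Cxcl2 that binds the same receptor, had the same first 2 classes at a far lower level. Neutrophil-like cells held 2724 CPM in the normal, 4606 in the irradiated, 1807 in the continuous, 3895 in the acute and 2714 in the chronic library. Macrophage or monocyte-like cells held 911, 1040, 193, 898 and 474 CPM in those libraries, and 95.6 in the pretreatment library. The groups did not overlap, since the lowest neutrophil-like value exceeded the highest macrophage or monocyte-like one. The next class was T or NK-like cells, with 353 CPM in the normal, 721 in the irradiated, 11.9 in the pretreatment, 318 in the continuous, 480 in the acute and 293 in the chronic library. They lay above the macrophage or monocyte-like level in the continuous library only. Fibroblast-like cells held 164, 308, 3.17, 65.5, 219 and 65.0 CPM in the 6 libraries in the same order.

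Cxcl1, the chemokine most widely spread over classes, was highest in fibroblast-like cells among the 7 compared classes, followed by macrophage or monocyte-like cells at 48.3% to 94.1% of that level. Pericyte or smooth muscle-like cells, too few to be compared, read 787 to 4179 CPM. Fibroblast-like cells held 2609 CPM in the normal, 3341 in the irradiated, 506 in the pretreatment, 2048 in the continuous, 2673 in the acute and 2384 in the chronic library. In macrophage or monocyte-like cells the values were 2070, 3144, 415, 997, 2432 and 1152 CPM in the same order. The ranges of the 2 classes overlapped, but the fibroblast-like value was the higher one within each library. Endothelial-like cells, which line the vessels that neutrophils leave, held 1053, 1477, 701, 447, 1329 and 705 CPM. In the pretreatment library they exceeded the fibroblast-like cells, at 139% of that level. Neutrophil-like cells held 948 CPM in the normal, 1467 in the irradiated, 178 in the continuous, 1091 in the acute and 640 in the chronic library.

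Cxcl5 was the chemokine with the narrowest source. Fibroblast-like cells held 1555 CPM in the normal, 2308 in the irradiated, 4.75 in the pretreatment, 1445 in the continuous, 1586 in the acute and 790 in the chronic library. No other compared class reached more than 59.4 CPM in any library. Outside the pretreatment library, where all 33 Cxcl5 UMIs of kept cells came from fibroblast-like cells, every fibroblast-like value lay above every value of the other compared classes.

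Cxcr2, the receptor, was a neutrophil gene in these libraries. Neutrophil-like cells held 250 CPM in the normal, 302 in the irradiated, 773 in the continuous, 281 in the acute and 437 in the chronic library, and the 23 cells of the pretreatment library read 528. No other compared class exceeded 17.4 CPM in any library. The ligands and the receptor therefore met in one class in the case of Cxcl2 and Cxcl3, and lay mainly in different classes in the case of Cxcl5.

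**Figure D1:**
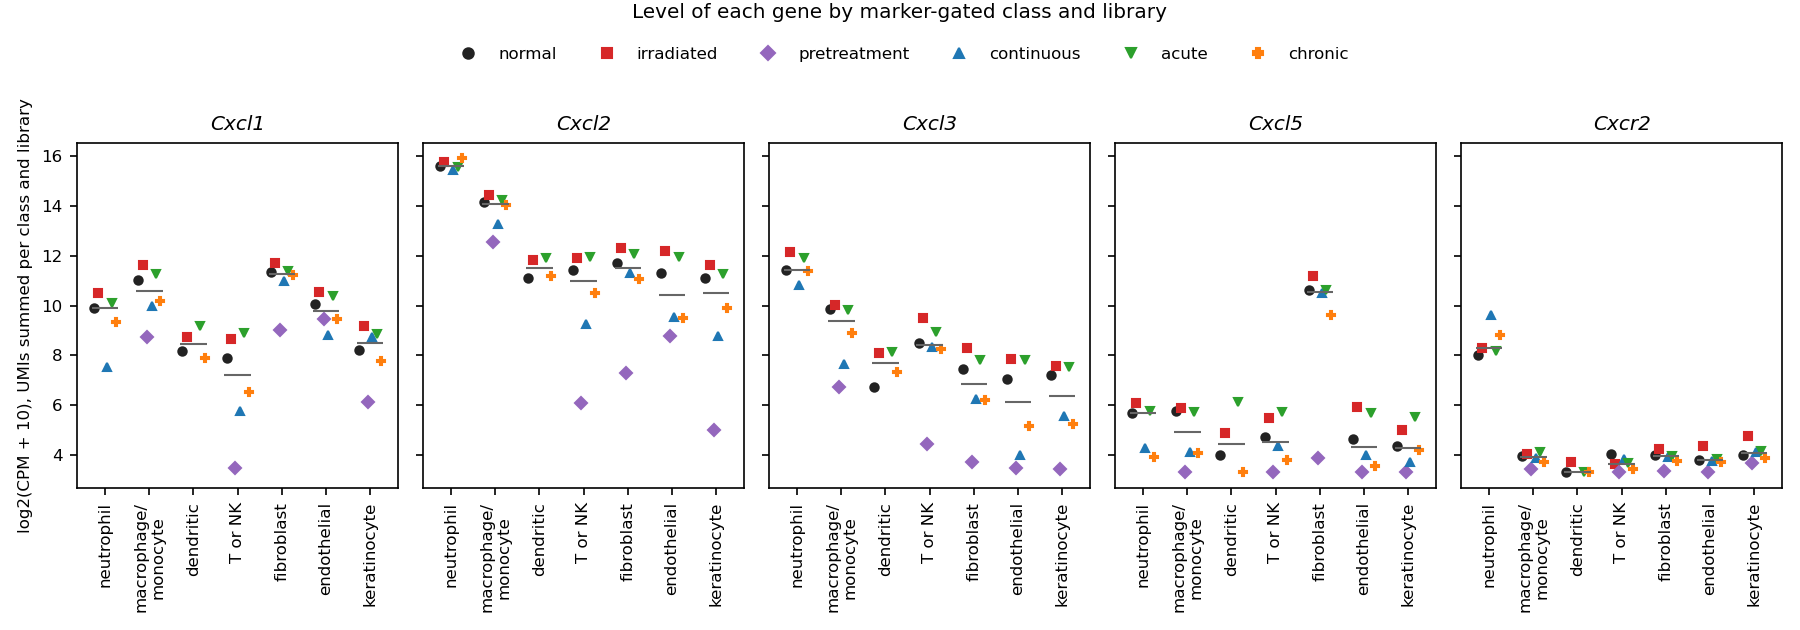
Level of each gene as log2(CPM + 10) in the 7 compared classes; each point is 1 library with at least 50 cells of the class and each bar is the median over those libraries. Cxcl2, Cxcl3 and Cxcr2 were highest in neutrophil-like cells, Cxcl5 in fibroblast-like cells, and Cxcl1 was spread over several classes.

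Each gene's highest class was compared with the next one over libraries by an exact two-sided sign-flip permutation test of log2(CPM + 10), adjusted by Benjamini-Hochberg over the 5 genes. The order of classes was taken from the same values, which favours the direction tested. The p-values and counts of libraries therefore describe that order and are no independent support for it. For Cxcl1 the difference between fibroblast-like and macrophage or monocyte-like cells was small, with a median of 0.31 (range 0.09 to 1.04), fibroblast-like cells higher in 6 of 6 libraries. Cxcl2 was higher in neutrophil-like than in macrophage or monocyte-like cells by a median of 1.46 (1.31 to 2.16), in 5 of 5 libraries. For Cxcl3 the same 2 classes differed by 2.14 (1.57 to 3.16), in 5 of 5 libraries. Cxcl5 was higher in fibroblast-like than in neutrophil-like cells by 5.08 (4.87 to 6.21), in 5 of 5 libraries. Cxcr2 was higher in neutrophil-like than in keratinocyte-like cells by 4.02 (3.51 to 5.48), in 5 of 5 libraries. The raw exact p was 0.0312 for Cxcl1 and 0.0625 for the other 4 genes, the smallest that 6 and 5 libraries allow, and the adjusted exact p was 0.0625 for each, so none passed 0.05 in a design that could not reach it with 5 libraries. When every cell was thinned to 1000 UMIs the Cxcl1 difference shrank to 0.048 (adjusted exact p = 0.344), and without the cells of cluster 9, a group of fibroblast-like cells left out after seeing the data, it was 0.77 (adjusted exact p = 0.0625).

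Being highest in 1 class in every library was not rare among genes. Of 14383 genes tested, 3.64% were higher in neutrophil-like cells than in each other compared class in all 5 libraries, and Cxcl2, Cxcl3 and Cxcr2 were among them. Of 14669 genes, 6.78% were highest in fibroblast-like cells in all 6 libraries, and Cxcl5 was among them. Cxcl1 was in neither set.

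Further down the order, 30 pairs of neighbouring classes were compared in the same way, unadjusted. Cxcl1 in neutrophil-like cells, ranked after macrophage or monocyte-like cells by its median of 948 CPM, was below endothelial-like cells in 5 of 5 shared libraries (median difference -0.15, exact p = 0.0625), because the endothelial-like median of 879 includes the pretreatment library. Keratinocyte-like and dendritic-like cells did not separate for Cxcl1 (higher in 2 of 4 libraries, exact p = 1). For Cxcl2, fibroblast-like cells exceeded T or NK-like cells in 6 of 6 libraries (exact p = 0.0312), whereas T or NK-like and endothelial-like cells did not separate (2 of 6, exact p = 0.594). Cxcl3 did not separate keratinocyte-like from endothelial-like cells (3 of 6, exact p = 0.844). Below its first class, Cxcl5 did not separate neutrophil-like from macrophage or monocyte-like cells (3 of 5, exact p = 0.625). Likewise Cxcr2 did not separate fibroblast-like from macrophage or monocyte-like cells (4 of 6, exact p = 0.781).

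Free RNA in droplets gives every class a low level of the most abundant transcripts, so the values outside each source class were set beside genes made mainly by 1 class. S100a8 and S100a9, the subunits of neutrophil calprotectin, served for neutrophils, and the matrix genes Col1a1, Dcn and Lum for fibroblasts. All of them were also markers of the class assignment, which keeps cells rich in them out of other classes. Their levels there may therefore understate free RNA. In fibroblast-like cells S100a8 reached a median of 1.89% of its neutrophil-like level over 5 libraries (0.436% to 2.53%), and Cxcr2 reached 1.96% (0.67% to 2.97%). Cxcr2 in fibroblast-like cells was thus at the level of a gene that these cells should lack and is read as background. Keratinocytes are known to make S100a8 and S100a9, which were at 9.58% and 8.53% of the neutrophil-like level in keratinocyte-like cells, so the 2 genes give no background there. Cxcr2 stood at 2.40% (0.975% to 5.76%) of its neutrophil-like level in that class. Cxcl2 in fibroblast-like cells was higher than S100a8 there, at 6.65% of its neutrophil-like level (3.49% to 9.02%), and Cxcl3 was at 5.61%. Other classes held similar shares of Cxcl2, with medians of 5.54% in T or NK-like, 5.38% in dendritic-like and 5.03% in endothelial-like cells. Keratinocyte-like cells were somewhat lower, and macrophage or monocyte-like cells far higher at 36.3%. Cxcl3 was at 5.59% in dendritic-like cells. How much of the fibroblast-like Cxcl2 and Cxcl3 was a level shared by these classes was not tested. When the neutrophil RNA that S100a8 gives was subtracted, a calculation chosen after seeing the data, 66.9% to 87.8% of the Cxcl2 and 62.2% to 81.8% of the Cxcl3 in fibroblast-like cells remained, with at least 98.9% of the Cxcl1. The parts that remained may be too large, since S100a8 was also a class marker and free RNA of other classes was not subtracted. In T or NK-like cells, Cxcl3 stood at 12.97% of its neutrophil-like level (10.8% to 17.6%) against 1.03% for S100a8. In endothelial-like cells of the continuous library, by contrast, Cxcl3 stood at 0.338% and S100a8 at 0.307%.

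The same comparison set Cxcl1 and Cxcl5 apart. In macrophage or monocyte-like cells Cxcl5 was at a median of 1.53% of its fibroblast-like level, beside 1.02% for Col1a1, 0.713% for Dcn and 1.08% for Lum. In neutrophil-like cells it was at 2.53%, beside 2.44%, 1.45% and 1.60%. In macrophage or monocyte-like cells of the chronic library it was at 0.897%, beside 0.209%, 0.219% and 0.310%. In those of the continuous library it was at 0.497%, beside 0.484%, 0.529% and 0.853%. Cxcl5 in these classes thus lay near or somewhat above the matrix genes, and how much of it was free RNA was not tested. Cxcl1 in macrophage or monocyte-like cells was at 80.7% of its fibroblast-like level (48.3% to 94.1%), in endothelial-like cells at 42.3% (21.8% to 139%) and in neutrophil-like cells at 36.3% (8.69% to 43.9%), all far above the matrix genes.

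**Figure D2:**
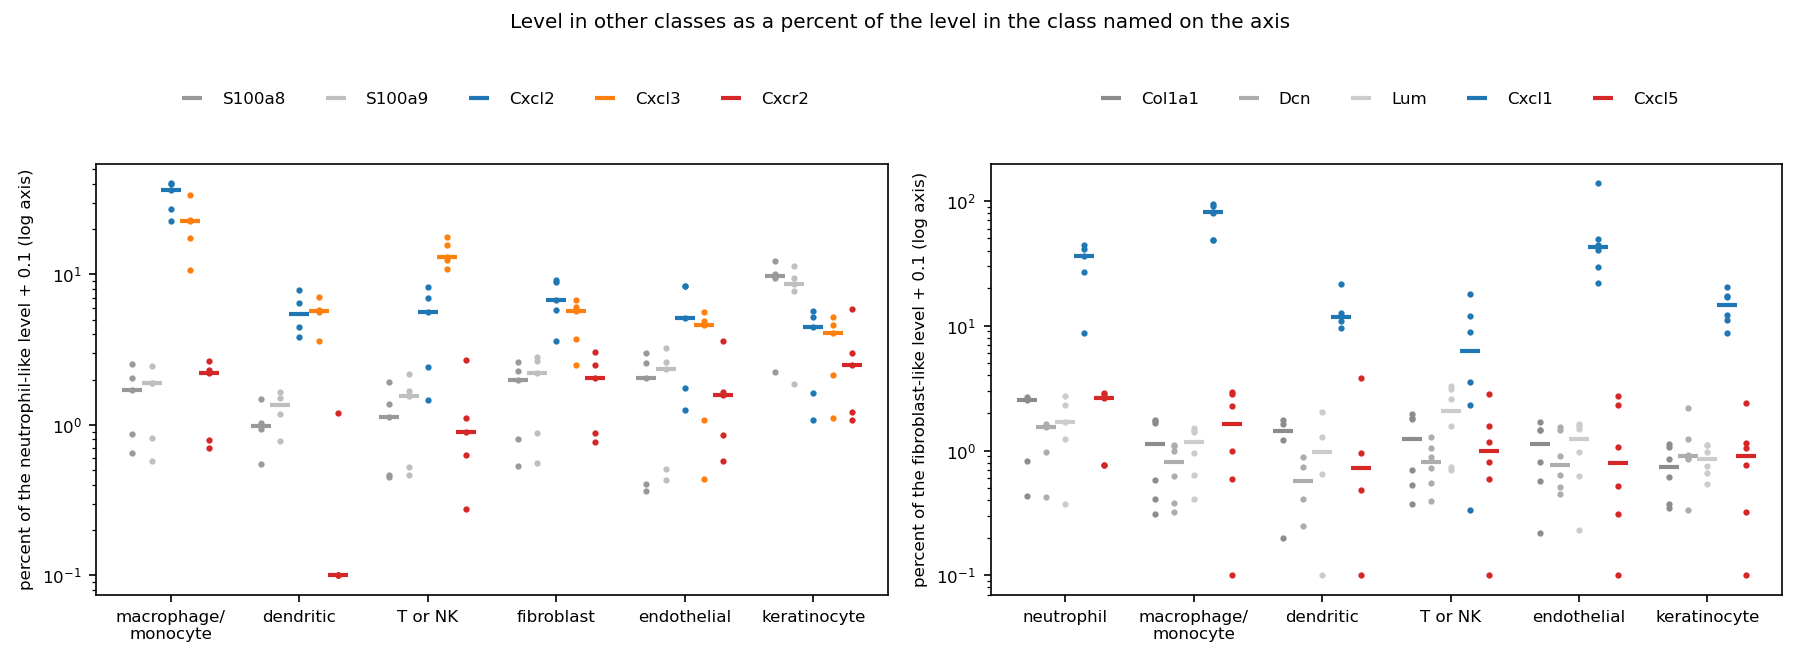
Level in other classes as a percentage of the level in the source class, plus 0.1, on a log axis; points are libraries and bars their medians, with neutrophil-like cells as the source in one panel and fibroblast-like cells in the other. Cxcr2 and Cxcl5 lie near or below S100a8 and Col1a1 in most classes, while Cxcl1, and Cxcl2 in macrophage or monocyte-like cells, lie well above them.

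Because the classes differ in number and in RNA per cell, the source of most molecules was not always the class with the highest level. Of the Cxcl1 UMIs in kept cells, fibroblast-like cells held 44.2% in the normal, 29.8% in the irradiated, 51.0% in the pretreatment, 37.8% in the continuous, 29.1% in the acute and 22.5% in the chronic library. Macrophage or monocyte-like cells held 25.6%, 41.4%, 29.5%, 39.9%, 45.0% and 49.0% of them, and so gave the larger part in 4 of 6 libraries although their level was lower. Of the Cxcl2 UMIs, neutrophil-like cells held 65.3% in the normal, 56.5% in the irradiated, 7.98% in the pretreatment, 74.7% in the continuous, 45.1% in the acute and 52.0% in the chronic library. In the pretreatment library, with its few neutrophil-like cells, macrophage or monocyte-like cells held 80.9% of the Cxcl2 and 74.4% of the Cxcl3 UMIs. Cxcl5 UMIs came from fibroblast-like cells at 89.0% to 100% in every library, and Cxcr2 UMIs from neutrophil-like cells at 82.2% to 97.6%.

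**Figure D3:**
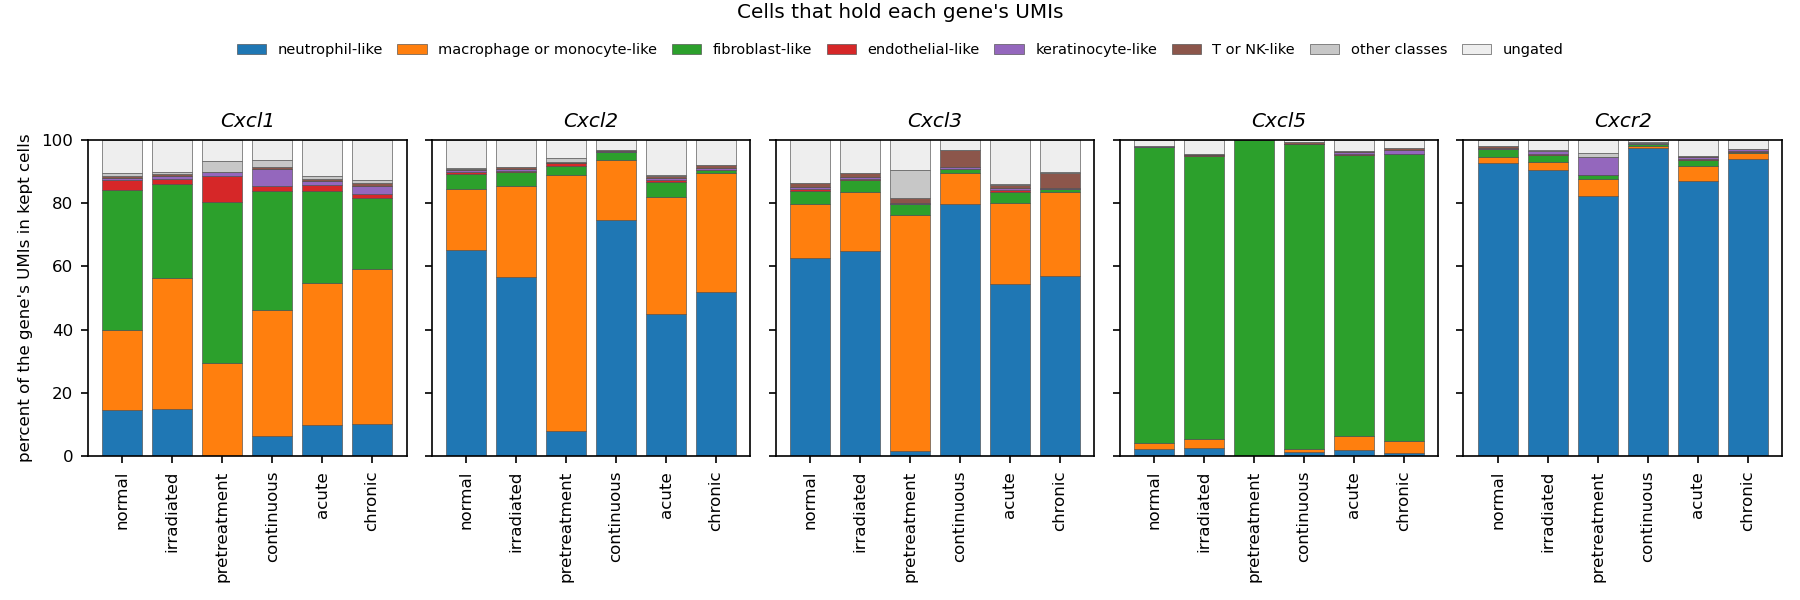
Percentage of each gene's UMIs in kept cells that came from each class, stacked, for the 6 libraries. Cxcl5 came almost wholly from fibroblast-like and Cxcr2 from neutrophil-like cells, while the Cxcl1 and Cxcl2 shares of fibroblast-like, macrophage or monocyte-like and neutrophil-like cells differed between libraries.

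Whole-library levels mix the makeup of a library with the levels inside its classes. Cxcl2 summed over all kept cells was 19654 CPM in the normal, 24654 in the irradiated, 2038 in the pretreatment, 15481 in the continuous, 19202 in the acute and 18094 in the chronic library. Cxcr2 was 69.2, 82.2, 4.12, 206, 57.3 and 70.5 CPM in the same order. Cxcl5 was 475, 556, 1.86, 205, 377 and 77.9 CPM. The pretreatment library was the lowest for each of these 3 genes, and it also had the fewest neutrophil-like cells, so the comparisons below are made within classes.

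Within their source classes the genes differed in how many cells carried them, counted after each cell was thinned to 1000 UMIs with shallower cells left out. Cxcl2 was found in 98.8% to 99.9% of neutrophil-like cells in 5 libraries, and in 98.3% of macrophage or monocyte-like cells of the normal library (95% exact interval 97.7% to 98.8%) against 80.0% (78.2% to 81.7%) in the continuous and 61.0% (55.6% to 66.3%) in the pretreatment library. Cxcl3 was found in 57.7% (56.0% to 59.3%) of neutrophil-like cells of the normal library, 75.2% (73.9% to 76.4%) of the irradiated, 44.7% (43.0% to 46.4%) of the continuous, 70.0% (68.1% to 71.8%) of the acute and 46.2% (44.1% to 48.4%) of the chronic library. Nearly every neutrophil-like cell thus carried Cxcl2, while Cxcl3 was found in a varying part of them. Thinning left out 3158 of 6690 neutrophil-like cells in the normal, 2900 of 7320 in the irradiated, 77 of 3283 in the continuous, 3392 of 5751 in the acute and 230 of 2307 in the chronic library, so these shares describe the deeper cells.

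Cxcr2 was found in 19.9% (18.6% to 21.3%) of thinned neutrophil-like cells in the normal, 23.4% (22.2% to 24.7%) in the irradiated, 49.4% (47.6% to 51.1%) in the continuous, 20.7% (19.1% to 22.4%) in the acute and 29.5% (27.6% to 31.5%) in the chronic library. Without thinning the shares were 21.0%, 28.3%, 75.4%, 23.5% and 43.6%. In fibroblast-like cells, which should lack the receptor, thinned shares were at most 0.77%, although these cells had median depths of 4291 to 11935 UMIs against 1376 to 2688 in the neutrophil-like cells before thinning. The pretreatment library gave 0 of 512 fibroblast-like cells, which allows a share of up to 0.586% of cells with a UMI at this depth and sets no limit on cells that express the gene. The continuous library was thus the highest for Cxcr2 by level and by share of cells at equal depth.

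Cxcl5 was found in 39.9% (37.6% to 42.2%) of thinned fibroblast-like cells of the normal library, 45.5% (42.8% to 48.3%) of the irradiated, 0.195% (0.00494% to 1.08%) of the pretreatment, 25.2% (21.3% to 29.3%) of the continuous, 41.2% (38.7% to 43.6%) of the acute and 24.5% (19.9% to 29.5%) of the chronic library. Unthinned shares were 53.2%, 59.9%, 1.48%, 37.2%, 54.3% and 42.9%. Other compared classes reached at most 5.14% when thinned. Cxcl1 was found in 68.9% (66.7% to 71.1%), 78.0% (75.7% to 80.3%), 13.9% (10.99% to 17.2%), 42.1% (37.7% to 46.7%), 71.4% (69.1% to 73.6%) and 52.9% (47.3% to 58.4%) of fibroblast-like cells in the same order of libraries. In T or NK-like cells, a class not known as a main source, Cxcl1 was found in 19.5%, 30.4%, 0%, 5.04%, 34.1% and 6.69% of thinned cells, with median depths of 1379 to 5814 UMIs before thinning. The fibroblast-like shares lay above these in each library.

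The RNA of some of these genes was concentrated in few cells. In fibroblast-like cells the 10% of cells with the most Cxcl5 held 59.1% to 76.6% of its UMIs in the 5 libraries outside pretreatment. The same 10% for Cxcl1 held 39.7% to 60.1% in those 5 libraries and 85.9% in the pretreatment library. In neutrophil-like cells Cxcl2 was the most even, with 25.1% to 27.9% of its UMIs in the top 10% of cells, and Cxcl3 less so, with 42.8% to 57.7%. The highest count in 1 cell was 1021 UMIs for Cxcl2, in a neutrophil-like cell of the chronic library, 389 for Cxcl5, in a fibroblast-like cell of the continuous library, and 23 for Cxcr2.

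Fibroblast-like cells with a Cxcl5 UMI had a Cxcl1 UMI more often than those without. At 1000 UMIs per cell, Cxcl1 was found in 77.7% (74.4% to 80.7%) of fibroblast-like cells with Cxcl5 and 63.1% (60.1% to 66.0%) of those without it in the normal library. In the irradiated library the shares were 86.1% (83.1% to 88.8%) and 71.3% (67.8% to 74.6%), and in the acute library 77.3% (73.8% to 80.4%) and 67.3% (64.2% to 70.3%). They lay farthest apart in the continuous library, at 74.2% (65.4% to 81.7%) and 31.4% (26.6% to 36.5%), and were 66.2% (54.8% to 76.4%) and 48.6% (42.2% to 55.0%) in the chronic library. In these 5 libraries cells with Cxcl5 had the higher share, and cells of 1 library are not replicates of it.

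In neutrophil-like cells, by contrast, cells with a Cxcr2 UMI had its ligands less often or at a lower count in most libraries. The share with Cxcl1 was lower among Cxcr2-carrying cells in all 5 libraries, for example 27.9% (24.6% to 31.4%) against 34.5% (32.7% to 36.3%) in the normal library, though the intervals overlapped in the irradiated, continuous, acute and chronic libraries. For Cxcl3 it was lower in 4 of 5 libraries, most in the chronic one at 36.4% (32.6% to 40.3%) against 50.3% (47.7% to 52.9%), and 71.1% against 69.7% in the acute library. The mean Cxcl2 count per thinned cell was 41.4 UMIs with Cxcr2 and 53.3 without in the normal library, 51.2 and 74.6 in the chronic library, and 49.9 and 47.6 in the acute library. These differences between cells of the same library are given as a description.

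Clusters, which were formed without the 5 genes, divided the source classes further. The fibroblast-like cells lay mainly in cluster 8, led by Serpinb2, Car4, Plac8, Prg4 and Cthrc1, and in cluster 9, led by Slc26a7, Rspo1, Prlr, Wfdc12 and Enpp2. Cxcl5 was higher in cluster 8 in all 6 libraries, with 1637 CPM in the normal, 2434 in the irradiated, 12.3 in the pretreatment, 1830 in the continuous, 1622 in the acute and 866 in the chronic library. Cluster 9 held 361, 463, 1.08, 208, 857 and 174 CPM. For Cxcl1 cluster 8 was also higher in all 6, with 2686, 3439, 1106, 2526, 2695 and 2567 CPM against 597, 1177, 212, 554, 1429 and 616. Cxcl2 was 3234, 5124, 347, 2883, 4239 and 2209 CPM in cluster 8 and 2389, 4407, 44.5, 1550, 4477 and 1549 in cluster 9, so cluster 8 was higher in 5 of 6 libraries, with the widest gap in pretreatment. Cluster 9 made up 9.27% of fibroblast-like cells in the normal, 8.8% in the irradiated, 72.0% in the pretreatment, 34.9% in the continuous, 7.03% in the acute and 17.5% in the chronic library. The class of the pretreatment library was thus mostly the cluster with less Cxcl1 and Cxcl5. Within cluster 8 alone, its Cxcl5 of 12.3 CPM remained far below the other 5 libraries.

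Neutrophil-like cells fell mainly into clusters 0 and 1. Cluster 0 was led by the cytokine genes Il23a, Il1f6 and Il1a and by Ereg. Cluster 1 was led by the granule genes Ngp, Camp and Ltf and by Cd177 and Ly6g. The chemokines were higher in cluster 0 and the receptor in cluster 1. Cxcl2 in cluster 0 was 71935 CPM in the normal, 73100 in the irradiated, 100946 in the continuous, 66637 in the acute and 108621 in the chronic library, against 29699, 52117, 42075, 46317 and 42527 in cluster 1. Cxcl3 was 3453, 6476, 3275, 5979 and 5368 CPM in cluster 0 and 1843, 3918, 1841, 3543 and 1576 in cluster 1. Cxcr2 ran the other way, at 156, 225, 396, 210 and 188 CPM in cluster 0 and 534, 416, 825, 417 and 573 in cluster 1. In each of the 5 libraries the direction was the same for these 3 genes. Cluster 0 made up 53.2%, 41.2%, 4.15%, 37.4% and 34.7% of neutrophil-like cells and cluster 1 made up 21.0%, 35.1%, 76.8%, 32.1% and 38.8%, so the continuous library was mostly cluster 1. Within cluster 1 its Cxcr2 was still the highest of the 5 libraries. Cluster 7, led by interferon-induced Ifit genes, held 461 to 983 CPM of Cxcr2. Clusters 2 and 13, led by immunoglobulin and haemoglobin genes, go against the name of the class; without them, a choice made after seeing the data, the differences between first and second class were 0.30, 1.51, 2.21, 5.11 and 4.13 for Cxcl1, Cxcl2, Cxcl3, Cxcl5 and Cxcr2.

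**Figure D4:**
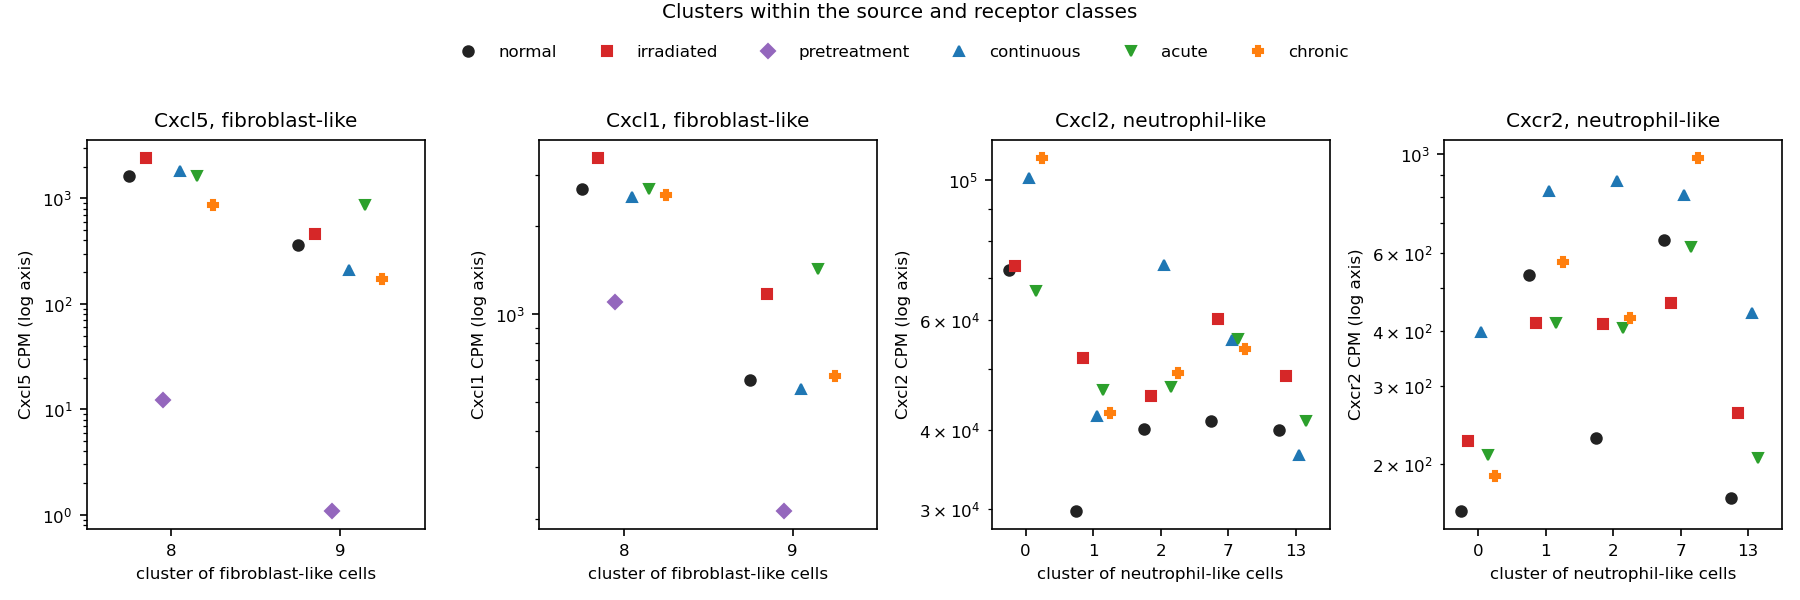
CPM of Cxcl5 and Cxcl1 in fibroblast-like cells of clusters 8 and 9, and of Cxcl2 and Cxcr2 in neutrophil-like cells of clusters 0, 1, 2, 7 and 13; points are libraries with at least 20 cells of the cluster. Cluster 8 lies above cluster 9 for Cxcl5 and Cxcl1, and cluster 0 lies above cluster 1 for Cxcl2 and below it for Cxcr2.

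The irradiated and the normal library were compared by their labels only, without a statement on radiation of the tissue. The ligands were read in fibroblast-like cells and Cxcr2 in neutrophil-like cells. At least 1.5-fold higher in the irradiated library were 2 of 5 genes, Cxcl2 at 1.54-fold (interval 1.51 to 1.56) and Cxcl3 at 1.88-fold (1.77 to 2.01), and none was that much lower. Cxcl5 was just under this limit at 1.48-fold (1.45 to 1.52), Cxcl1 was at 1.28-fold (1.26 to 1.30) and Cxcr2 at 1.21-fold (1.14 to 1.28). Among all genes with at least 100 UMIs in both sums together, 4.29% were 1.5-fold higher and 4.57% lower in fibroblast-like cells, and 4.7% higher and 13.5% lower in neutrophil-like cells. In the whole classes all 5 genes were at a higher level in the irradiated library, by amounts between 1.21-fold and 1.88-fold. For Cxcr2 the direction turned within neutrophil cluster 1, where it was 1.28-fold lower, and in cluster 7, with 461 against 641 CPM, while it was 1.44-fold higher within cluster 0. The calls depended on how doublets were removed. With Scrublet's own threshold, which removed 22.0% of cells in the irradiated library and 0% in the normal one, the log2 ratio was 0.16 for Cxcl2 and 0.41 for Cxcl3, down from 0.62 and 0.91, and 0.67 for Cxcl5, which then alone passed 1.5-fold. With no doublets removed it was 0.49 for Cxcl2 and 0.71 for Cxcl3. In neutrophil-like cells the ligand ratios were 1.55 for Cxcl1, 1.13 for Cxcl2 and 1.69 (1.66 to 1.72) for Cxcl3, and in macrophage or monocyte-like cells 1.52, 1.24 and 1.14.

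In the pretreatment library all 4 ligands were lower than in the irradiated library in fibroblast-like cells, by widely different folds. Cxcl1 was 6.61-fold lower (6.38 to 6.85), Cxcl2 34.97-fold (32.9 to 37.3), Cxcl3 97.3-fold (64.1 to 155) and Cxcl5 486-fold (346 to 706), the last from 33 against 20093 UMIs. Within cluster 8 alone the folds were 3.11, 14.8, 37.7 and 198, each smaller by more than 1.5 times, with the same direction. Within cluster 9, which held 72.0% of the fibroblast-like cells of the pretreatment library, they were 5.55, 99.0, 231 and 430. The Cxcl2 and Cxcl3 folds were larger there than in the whole class. In that cluster Cxcl3 and Cxcl5 rested on 3 and 5 UMIs in the pretreatment library. The background in the whole class was wide too, with 18.5% of genes 1.5-fold higher and 18.4% lower. In macrophage or monocyte-like cells Cxcl2 was 3.75-fold (3.71 to 3.80) and Cxcl3 10.9-fold lower, less far than in fibroblast-like cells, whereas Cxcl1 was 7.58-fold lower. Cxcl5 had no UMI in those cells of the pretreatment library, at least 81.7-fold lower than in the irradiated. In endothelial-like cells Cxcl1 was 2.11-fold and Cxcl2 10.9-fold lower. Cxcr2 was not compared because of the 23 neutrophil-like cells.

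In the continuous library the ligands were lower and the receptor higher than in the irradiated library. In fibroblast-like cells Cxcl1 was 1.63-fold lower (1.60 to 1.67), Cxcl2 2.00-fold (1.96 to 2.04), Cxcl3 4.71-fold (4.19 to 5.31) and Cxcl5 1.60-fold (1.55 to 1.64), where 10.3% of genes were 1.5-fold higher and 12.1% lower. Cxcr2 in neutrophil-like cells was 2.56-fold higher (2.45 to 2.67), where 7.5% of genes were 1.5-fold higher and 39.0% lower. Neutrophil-like cells held 8.24-fold less Cxcl1 (7.83 to 8.68), 2.55-fold less Cxcl3 (2.50 to 2.59) and 1.27-fold less Cxcl2. In macrophage or monocyte-like cells the ligands were 3.16-fold (Cxcl1), 2.25-fold (Cxcl2) and 5.40-fold (Cxcl3) lower. Cxcl2 was also lower in T or NK-like cells, at 606 against 3890 CPM, and in endothelial-like cells, at 741 against 4666. All 5 genes passed the 1.5-fold limit in the whole classes, but 2 of these calls did not hold within cluster 8. Within cluster 8 the ligands were 1.36-fold (Cxcl1), 1.78-fold (Cxcl2), 4.09-fold (Cxcl3) and 1.33-fold (Cxcl5) lower, so Cxcl1 and Cxcl5 no longer passed there. Within cluster 9 they were 2.13-fold (Cxcl1), 2.84-fold (Cxcl2), 4.95-fold (Cxcl3) and 2.23-fold (Cxcl5) lower, so each ligand passed. Within neutrophil cluster 1, Cxcr2 was 1.98-fold higher, Cxcl1 5.83-fold and Cxcl3 2.13-fold lower, and within cluster 0 Cxcr2 was 1.76-fold higher while Cxcl2 was 1.38-fold higher.

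The acute library was the closest to the irradiated one, and none of the 5 genes differed by 1.5-fold. The ligands in fibroblast-like cells were 1.25-fold (Cxcl1), 1.19-fold (Cxcl2), 1.41-fold (Cxcl3) and 1.46-fold (Cxcl5) lower, and Cxcr2 in neutrophil-like cells was 1.07-fold lower (1.01 to 1.14). With Scrublet's own threshold, which removed 0% in the acute library, the log2 ratio of Cxcl2 turned from -0.25 to 0.16 and that of Cxcl5 went from -0.54 to -0.63, past the 1.5-fold limit. Within cluster 8, Cxcl3 was 1.51-fold and Cxcl5 1.501-fold lower. Within cluster 9, by contrast, Cxcl5 was 1.85-fold and Cxcl1 1.21-fold higher, and the ratios of Cxcl2 and Cxcl3 were 1.02 and 1.01. Few genes differed in fibroblast-like cells (2.15% higher, 1.14% lower), and in neutrophil-like cells 12.4% were higher and 1.42% lower.

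In the chronic library 3 of 5 genes were at least 1.5-fold lower than in the irradiated library, all of them ligands, which were read in fibroblast-like cells. Lower Cxcl2 was not confined to that class. T or NK-like cells held 1448 CPM of it against 3890 in the irradiated library, and endothelial-like cells 721 against 4666. The values that follow are those of fibroblast-like cells. Cxcl2 was 2.36-fold lower (2.30 to 2.42), Cxcl3 4.74-fold (4.09 to 5.53) and Cxcl5 2.92-fold (2.80 to 3.05), while Cxcl1 was 1.40-fold lower (1.37 to 1.44). The background in fibroblast-like cells was 7.27% higher and 7.88% lower. Cxcr2 in neutrophil-like cells was 1.45-fold higher (1.37 to 1.53), where 9.2% of genes were 1.5-fold higher and 16.1% lower. Cxcl2 in neutrophil-like cells was 1.10-fold higher (1.09 to 1.10), with opposite directions inside the class, 1.49-fold higher in cluster 0 and 1.23-fold lower in cluster 1. Cxcr2 ran the other way, 1.197-fold lower in cluster 0 and 1.38-fold higher in cluster 1. In the whole class Cxcl3 was 1.70-fold and Cxcl1 2.29-fold lower.

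**Figure D5:**
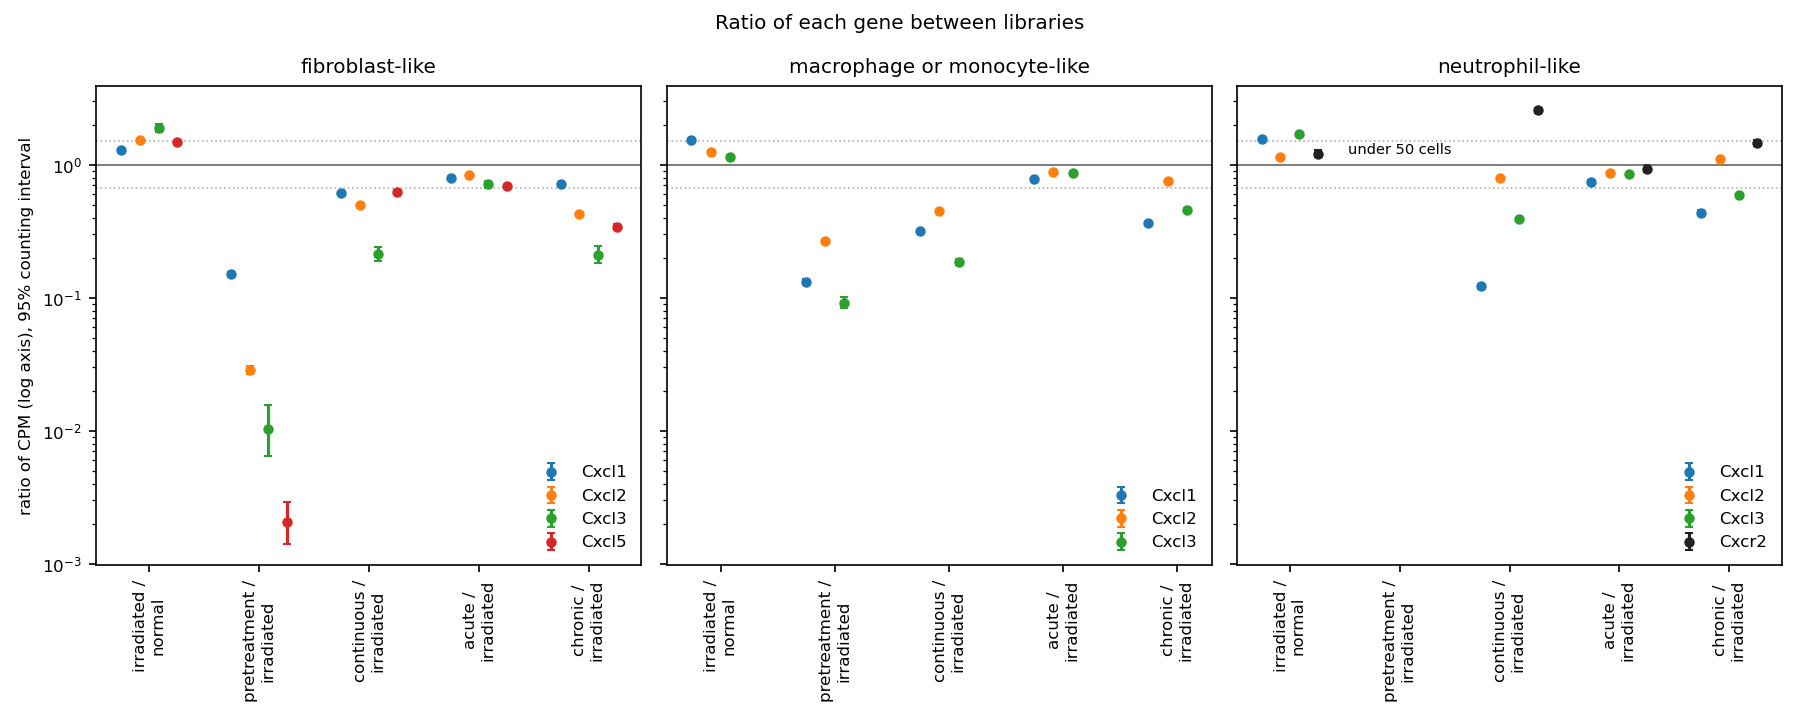
Ratio of CPM between libraries (log axis) with 95% counting intervals, in fibroblast-like, macrophage or monocyte-like and neutrophil-like cells; dotted lines mark 1.5-fold in each direction. The pretreatment, continuous and chronic libraries lie below the irradiated library for the fibroblast-like ligands, and Cxcr2 lies above it in the continuous library.

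The 4 comparisons of patch libraries share the irradiated library, so their directions are not independent. The pretreatment, continuous and chronic libraries, where all 4 fibroblast-like ligand values were lowest, also had the most UMIs per cell, with medians of 9678, 3191 and 2620 against 1242 to 1455 in the others. They held less neutrophil RNA in fibroblast-like cells where this could be measured, with S100a8 at 0.7% of its neutrophil-like level in the continuous and 0.436% in the chronic library against 1.89% to 2.53% in the other 3. Thinning each cell to 1000 UMIs gives cells equal weight and leaves out shallow ones. It keeps a gene's expected share of each cell's UMIs, so it cannot decide whether the difference in depth matters. With cells so thinned, all 4 ligands were lower in fibroblast-like cells of the pretreatment, continuous and chronic libraries than of the irradiated one. The log2 ratios of Cxcl1, Cxcl2, Cxcl3 and Cxcl5 were then -3.14, -5.14, -6.24 and -10.09 in the pretreatment, -0.97, -1.13, -2.68 and -1.004 in the continuous, and -0.64, -1.25, -1.84 and -1.70 in the chronic library, where Cxcl1 passed the 1.5-fold limit too. The pretreatment and continuous libraries also lack hashtag features, which the irradiated library has, so the label and this difference in preparation cannot be told apart. After subtraction of the neutrophil RNA that S100a8 gives, the counts of genes beyond 1.5-fold were as before in the 4 comparisons where it could be computed. Free RNA of other classes, such as macrophage or monocyte-like cells, was not subtracted, so these counts cannot speak of free RNA as a whole.

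Genes that act with these chemokines were read in the same classes. Of the related chemokines and receptors, Cxcr1, a second receptor of the family, was found in neutrophil-like cells at a median of 55.8 CPM (34.3 to 83.4). Ackr1, which carries chemokines across venular endothelium, was highest in endothelial-like cells at 151 CPM (75.6 to 206). Cxcl12, a chemokine that holds neutrophils in bone marrow through Cxcr4, was at 1151 CPM (545 to 1508) in fibroblast-like cells. Ppbp stayed at or under 9.73 CPM and Cxcl15 at or under 0.904 CPM in every compared class, so Cxcl1, Cxcl2, Cxcl3 and Cxcl5 made up nearly all of the measured ELR chemokine RNA. In fibroblast-like cells 5 of the 8 genes of this list had enough UMIs in each comparison. The numbers at least 1.5-fold higher and lower were 1 and 0 in the irradiated against the normal library, and against the irradiated library 1 and 4 in the pretreatment, 1 and 3 in the continuous, 1 and 0 in the acute and 1 and 2 in the chronic library. Their median log2 ratios were -0.14, -1.25, -0.63, -0.13 and -0.05, beside medians over all genes of -0.02, 0.01, 0.01, 0.05 and 0.02. Ackr1 was 9.50-fold higher (7.57 to 12.1) in fibroblast-like cells of the pretreatment and 4.48-fold higher in those of the continuous library, and Pf4, a platelet and macrophage chemokine, was 20.8-fold lower in the pretreatment library.

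Of the cytokines that induce these chemokines and their receptors, Il1b, Tnf and Il17a were read in leukocyte classes and Il1r1 and Il17ra in fibroblast-like cells. Fibroblast-like cells also held cytokine RNA of this list, with Il6 at 778 and Csf3 at 218 CPM in the irradiated library. Il1b was at a median of 11264 CPM in neutrophil-like and 5095 in macrophage or monocyte-like cells, Tnf at 2336 and 773, and Il17a at 1493 (93.2 to 1948) in T or NK-like cells. The receptor genes Il1r1 and Il17ra were at 192 and 79.1 CPM in fibroblast-like cells. Of 15 inducing cytokines and receptors tested in fibroblast-like cells, 6 were 1.5-fold higher and 0 lower in the irradiated than in the normal library, with a median log2 ratio of 0.20 beside -0.02 over all genes. Of all genes, 4.29% were that much higher and 4.57% lower. Against the irradiated library, 0 of 14 were higher and 9 lower in the pretreatment (median -2.36), 3 and 7 of 15 in the continuous (-0.21), 1 and 1 of 15 in the acute (-0.04) and 0 and 7 of 14 in the chronic library (-0.93). All genes had medians of 0.01, 0.01, 0.05 and 0.02 there, with 18.5% higher and 18.4% lower in the pretreatment, 10.3% and 12.1% in the continuous, 2.15% and 1.14% in the acute and 7.27% and 7.88% in the chronic library. Csf3, which encodes the neutrophil growth factor G-CSF, was 2.22-fold higher (2.05 to 2.40) in the irradiated than in the normal library, at 218 against 98.6 CPM. It was 1.84-fold higher again in the continuous library, at 401 CPM, although the 4 chemokines were lower there. In the chronic library Tnf was 4.50-fold and Il6 3.52-fold lower in fibroblast-like cells, and in the pretreatment library Il1rn was 240-fold lower (110 to 656). The part of free leukocyte RNA in the values of these cytokines in fibroblast-like cells was not tested.

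Regulators of NF-kB signalling and mRNA stability made up a further list of 18 genes. In fibroblast-like cells 1 was 1.5-fold higher and 0 lower in the irradiated than in the normal library (of 18, median log2 ratio 0.15). Against the irradiated library, 2 were higher and 6 lower of 18 in the pretreatment (0.03), 0 and 3 of 17 in the continuous (-0.04), 0 and 0 of 18 in the acute (0.00) and 0 and 4 of 17 in the chronic library (-0.33). The shares and medians over all genes are those just given for fibroblast-like cells. Tnfaip3, an NF-kB target that dampens the pathway, was 2.27-fold higher (2.14 to 2.41) in the irradiated than in the normal library. It was 2.33-fold lower in the pretreatment, 2.07-fold in the continuous, 1.37-fold in the acute and 3.96-fold in the chronic library. Bcl3 and Relb, also of this pathway, were instead 1.67-fold and 1.53-fold higher in the pretreatment library.

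Of 14 genes of Cxcr2 signalling and neutrophil adhesion, 13 were tested in neutrophil-like cells. None was 1.5-fold higher or lower in the irradiated than in the normal library, with a median log2 ratio of 0.09 beside -0.17 over all genes. Against the irradiated library, 3 were higher and 1 lower in the continuous library (0.25, all genes -0.38), 0 and 0 in the acute (0.05, all genes 0.25) and 1 and 0 in the chronic library (0.10, all genes -0.09). Of all genes in neutrophil-like cells, 4.7% were higher and 13.5% lower in the irradiated against the normal library, and against the irradiated library 7.5% and 39.0% in the continuous, 12.4% and 1.42% in the acute and 9.2% and 16.1% in the chronic library. In the continuous library Rac2, a GTPase of neutrophil migration, was 1.89-fold higher (1.80 to 1.99) and Gnai2, a G protein subunit through which chemokine receptors signal, 1.66-fold higher (1.59 to 1.73), beside the 2.56-fold higher Cxcr2. Itgam, an integrin subunit of neutrophil adhesion, was 1.32-fold lower and Icam1, its ligand on other cells, 2.26-fold lower. The vessel selectins Sele and Selp were at 110 and 608 CPM in endothelial-like cells.

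The genes whose levels followed each member most closely were found by Pearson's r over 39 class-by-library points among 7102 genes. These points share libraries and depth, so r is a description. For Cxcl1 they were Ccl2, a monocyte chemokine (0.924), Ctsl, a lysosomal protease (0.899) and Fn1, fibronectin (0.883). Cxcl2 was followed by Cd14, a co-receptor for bacterial lipopolysaccharide (0.962), Clec4e, an innate lectin receptor (0.958) and Nlrp3, an inflammasome sensor (0.949). For Cxcl3 they were Gm15832 (0.942), the chemokine gene Ccl4 (0.941) and Nlrp3 (0.933). Cxcl5 was followed by the matrix gene Tnc (0.938), Draxin (0.923) and the pentraxin Ptx3 (0.917). For Cxcr2 they were Ly6g, a neutrophil surface protein (0.984), the transcription factor Nfe2 (0.983) and Cxcr1 (0.979). Between the members r was 0.903 for Cxcl2 and Cxcl3, 0.643 for Cxcl1 and Cxcl5, 0.573 for Cxcl1 and Cxcl2 and 0.0171 for Cxcl5 and Cxcr2.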

How the data were processed

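Per the labels' protocols, minced skin was treated with collagenase, and cells went through the 10x 3' v3 workflow and a NextSeq 500. The authors deposited, for each library, raw UMI counts per gene and cell, made with Cell Ranger 6.0.0 per the file headers; the submitters' processing notes name Cell Ranger, Seurat 5.0.1 and Sscrofa11.1, a pig build, whereas the gene identifiers are mouse. The 5 genes, the gene lists and the comparisons were chosen with earlier results of these data known.

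Barcodes were dropped under 500 UMIs, under 300 genes or over 20% mitochondrial UMIs. The highest Scrublet doublet scores were removed at 0.8% per 1000 barcodes, because Scrublet's own threshold marked under 0.5% of cells in 4 of 6 libraries. Cells were assigned to 11 classes by scaled marker scores (mean of the 4 highest markers at least 0.2, a lead of at least 0.1, at least 2 markers and 3 marker UMIs), and 25 Leiden clusters (2000 variable genes without the 5 genes, 30 components, 15 neighbours, resolution 1) served as a check. Raw counts were summed per class and library. Ratios were taken for sums of at least 50 cells, with exact conditional 95% intervals. Classes with 50 cells in at least 4 libraries were compared. A gene entered the background with at least 100 UMIs in both sums together. Intervals and limits of counts of 0 cover counting error only, the latter being 3 cells of the total. Genes named from the lists were the at most 2 highest and 2 lowest per list and comparison with 100 UMIs and 20 CPM in the higher library and an interval without 1; levels of other list genes are named for their role. Genes of like pattern are the 3 with the highest r. The scripts were tested on simulated data. Alternatives were other filters, doublet rules, class rules, normalization, thinning, pseudocounts, folds and left-out libraries. Hashtag counts marked few cells with a single tag in the irradiated and acute libraries (12.3% and 0.7%) and were not used. In the normal library 89.8% of kept cells had a single tag, the same one in 13495 of 13504. In the chronic library 66.5% had a single tag, the same one in 5611 of 5632. Python 3.11.15, numpy 2.4.6, scipy 1.17.1, pandas 2.3.3, scanpy 1.11.5, anndata 0.12.19 and igraph 0.11.9 were used.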

Additional observations from a re-analysis of the deposited data

Results flagged for a closer look

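The pericyte or smooth muscle-like class, the contractile cells around vessels, lay outside the compared classes because it reached 50 cells in only 2 libraries. It held Cxcl1 above the limit that a count of 0 allows in each of the 6 libraries, which is why it is given here. Its Cxcl1 level was 4179 CPM in the normal library (37 cells), 3105 in the irradiated (44 cells), 787 in the pretreatment (37 cells), 1949 in the continuous (76 cells), 2433 in the acute (95 cells) and 2767 in the chronic library (19 cells). Beside the fibroblast-like cells of the same library, these values were higher in the normal, pretreatment and chronic libraries and lower in the irradiated, continuous and acute libraries. No test was made on so few cells.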

How the results depend on the processing

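No paired analysis was possible because each label has 1 library; only classes were paired, within libraries. The difference between first and second class kept its direction for all 5 genes under every alternative run, none of which could pass the threshold with 5 libraries. Leaving out 1 library at a time gave medians (log2) of 0.28 to 0.33 for Cxcl1, 1.40 to 1.68 for Cxcl2, 2.12 to 2.31 for Cxcl3, 4.99 to 5.40 for Cxcl5 and 4.01 to 4.47 for Cxcr2. Counts of genes at least 1.5-fold apart moved in the 7 cases below. Not among these is thinning, which took Cxcl1 past the limit in the chronic library, as given above. For irradiated against normal, 1 rather than 2 was higher with no doublets removed and with Scrublet's own threshold, and 0 at 2-fold. For chronic against irradiated, 1 rather than 0 was higher with no doublets removed. For acute against irradiated, 1 rather than 0 was lower with Scrublet's own threshold, and for continuous against irradiated 2 rather than 4 were lower at 2-fold and without cluster 9, an alternative chosen after seeing the data. A 2-fold limit calls fewer genes by construction, and the cause of the other moves was not tested. Cxcr2 in fibroblast-like cells, at background level, reversed for acute against irradiated from a log2 ratio of -0.70 to 0.0595 with Scrublet's own threshold and 0.113 after thinning. Of 1104 ratios recomputed, 1084 kept their sign, 20 did not, and 27 moved by over 1.5-fold. Values per hashtag were planned and not run, since no library had 2 tags with 50 fibroblast-like cells. Depth limits Cxcr2 and Cxcl5, whose unthinned shares exceeded the thinned ones in each library where they were given. In the pretreatment library Cxcl5 rested on 33 UMIs.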
